A study of Mus musculus with 26 samples.

Results

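Total H3K4me3 was compared between E14 mouse embryonic stem cells (ESCs) and WT clones over every region of the H3K4me3 table made for E14 cells. The table holds 21970 regions, of which 408 lie on chromosome 14 between 40 and 90 Mb, where copy number differs between the cells, and 21562 lie elsewhere. Of the 26 libraries of the series, 4 entered the comparison, 2 from each group. All regions of the table were used. It is the table of E14 cells, and no region was empty in either E14 library, while 76 were empty in clone 57 and 21 in clone 58, so entry to the table went with E14 signal. They covered 50.8 Mb with a median width of 1950 bp. The methods name EPIC2 for the study's peak calls, but the edges of these regions do not lie on its stated bins. Another peak caller, MACS2, is also listed among the upstream tools. Which tool called the regions of the table was not settled here.

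E14 is an established mouse ESC line, and both groups were grown without feeders in serum with LIF (leukaemia inhibitory factor, a cytokine that keeps ESCs undifferentiated). The E14 libraries came from non-clonal cells of WT genotype, replicate 1 in sequencing batch A and replicate 2 in batch B, from different passages. WT clones 57 and 58 are single clones of E14 origin that serve as controls for clones lacking Dppa2 and Dppa4 (DKO), are WT themselves, and were sequenced together in batch C. All 4 libraries used the same Millipore antibody to H3K4me3, and each is an in-line total, the portion of MNase-digested chromatin kept back after the first ChIP of a sequential ChIP (reChIP). According to the paper this antibody has been reported to detect the dimethylated form H3K4me2 as well. The paper also describes its in-line totals as noisier, likely from less starting material. Cell line and batch change together here, so their parts in any difference cannot be told apart. Each group holds 2 libraries. The p-values rest on the spread within groups, through a variance model that borrows from all regions. They do not measure how other cultures, clones or batches would vary.

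H3K4me3 is the trimethylated form of lysine 4 on histone H3, which complexes of the SET1 and MLL families lay down around transcription start sites. It is broad and strong at CpG-rich promoters, both at active genes and at developmental genes that also carry the repressive mark H3K27me3, and weak at most other sites. A ChIP value at a region scales with the number of DNA copies as well as with the mark on each copy, so copy number enters every level given here.

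Between 13705151 and 29588817 reads stood behind a library, and 9.86% of the reads of E14 replicate 1 and 13.3% of those of replicate 2 fell in the regions. In clone 57 the share was 34.5%, against 14.5% in clone 58, so clone 57 stood apart from the other 3 libraries. The means were 11.6% ± 2.41 (SD, n = 2) in E14 and 24.5% ± 14.2 (SD, n = 2) in the clones, a difference of -12.9 percentage points with an exact two-sided permutation p = 0.333, the smallest that 2 against 2 libraries can give. Without clone 57 the difference was -2.90 points. The IgG–IgG libraries, which measure background, had 3.89% of their reads in the regions in E14 and 5.27% in clone 57. Values were also more spread in the clones, where the range from the 10th to the 90th percentile of regions was 2.99 log2 units in clone 57 and 2.07 in clone 58, against 1.17 and 1.11 in E14. Over all regions the 2 clones correlated with Pearson's r = 0.89 and the 2 E14 replicates with r = 0.51, while E14 replicate 2 reached 0.71 with clone 58 and 0.69 with clone 57. These correlations are across regions, which are no independent replicates. Each library was therefore centred on its own median before E14 was compared with the clones, and every level below is log2 RPM (reads scaled to the size of the library) per kb minus that median.

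Both groups carried H3K4me3 at the promoters of ESC genes. All 23 pluripotency factors that were listed had a promoter region in the table, with median levels of 0.19 and 0.39 in E14 and 0.64 and 0.53 in the clones. Of the markers of other cells that a culture could hold, 12 of 18 genes of extraembryonic endoderm, 9 of 12 of trophoblast, 4 of 12 of mesoderm, 9 of 13 of neuroectoderm and 7 of 16 of fibroblasts had one. Median levels of these 5 lists lay between 0.00 and 0.20 in E14 replicate 1, between -0.25 and -0.04 in replicate 2, between -0.32 and 0.16 in clone 57 and between -0.24 and 0.19 in clone 58, so the replicates of E14 fell on different sides of the library median. Markers such as Afp and Ttr of endoderm, Elf5 and Eomes of trophoblast, T of mesoderm and Col3a1 and Dcn of fibroblasts had no region at their promoters. Others did have one, such as Gata4 of endoderm, Gata2 and Krt18 of trophoblast, Kdr and Mixl1 of mesoderm and Twist1 and Thy1 of fibroblasts. In ESCs promoters of this kind can carry H3K4me3 without transcription, so a region is no measure of other cells.

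5 sequences are printed so that the DNA at some of the regions described below can be seen. They are, from RefSeq-annotated windows of the GRCm38.p6 assembly (mm10), 300 bases around the start sites of Mest and Zdbf2, 2 imprinted genes at which H3K4me3 was lower in E14, of Sox2, a pluripotency factor at which it was also lower, and of Olfr1313, an olfactory receptor with a higher region that covers 117 of the 300 bases, followed by a 300 bp region away from promoters whose nearest start site is that of Kcnv1 and which was also higher in E14. They lie at chr6:30737800-30738099 (Mest, plus strand), chr1:63200108-63200407 (Zdbf2, plus), chr3:34649745-34650044 (Sox2, plus), chr2:112072534-112072833 (Olfr1313, minus) and chr15:45013201-45013500 (near Kcnv1, plus strand shown). Capitals mark the dinucleotide CG, which reads the same on both strands.
Mest: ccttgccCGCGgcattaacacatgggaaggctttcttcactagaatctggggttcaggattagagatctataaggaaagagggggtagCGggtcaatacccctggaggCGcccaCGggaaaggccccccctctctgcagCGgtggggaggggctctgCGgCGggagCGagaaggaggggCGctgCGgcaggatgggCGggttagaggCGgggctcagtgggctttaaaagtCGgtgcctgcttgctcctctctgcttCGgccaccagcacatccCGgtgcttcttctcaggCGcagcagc
Zdbf2: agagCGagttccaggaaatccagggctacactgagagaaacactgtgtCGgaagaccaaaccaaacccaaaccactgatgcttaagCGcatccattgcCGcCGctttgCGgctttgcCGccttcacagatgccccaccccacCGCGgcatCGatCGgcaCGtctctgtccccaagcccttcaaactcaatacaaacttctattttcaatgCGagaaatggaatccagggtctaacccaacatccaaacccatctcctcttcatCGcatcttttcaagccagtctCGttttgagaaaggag
Sox2: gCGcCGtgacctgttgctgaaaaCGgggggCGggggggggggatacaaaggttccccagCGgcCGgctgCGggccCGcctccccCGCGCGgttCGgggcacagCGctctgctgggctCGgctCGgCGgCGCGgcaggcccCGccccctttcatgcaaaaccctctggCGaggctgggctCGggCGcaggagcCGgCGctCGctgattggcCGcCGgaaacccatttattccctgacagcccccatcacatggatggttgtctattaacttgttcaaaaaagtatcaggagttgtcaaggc
Olfr1313: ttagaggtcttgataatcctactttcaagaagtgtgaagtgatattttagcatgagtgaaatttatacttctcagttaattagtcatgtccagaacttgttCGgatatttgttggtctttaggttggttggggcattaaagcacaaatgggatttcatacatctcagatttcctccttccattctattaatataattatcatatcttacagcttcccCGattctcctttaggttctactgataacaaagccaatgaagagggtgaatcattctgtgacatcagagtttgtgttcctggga
near Kcnv1: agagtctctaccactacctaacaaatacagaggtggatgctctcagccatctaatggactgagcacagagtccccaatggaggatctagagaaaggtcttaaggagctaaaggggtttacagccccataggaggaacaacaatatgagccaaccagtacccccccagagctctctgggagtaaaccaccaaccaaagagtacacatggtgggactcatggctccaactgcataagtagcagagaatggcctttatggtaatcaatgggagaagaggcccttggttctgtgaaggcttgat
The Mest window holds 17 CG, a number reached by 31.4% of all 32851 promoter windows of RefSeq, and the Zdbf2 window holds 15, reached by 34.6%. The Sox2 window holds 27, reached by 15.5%. The Olfr1313 window holds 2, and 23.3% of windows hold as few. No CG stands in the region near Kcnv1, as in 16.4% of the 300 bp regions of the table. These shares are over all RefSeq windows, many of them at genes with no region here. Over their whole regions Mest and Zdbf2 held 5.07 and 3.58 CG per 100 bases and Sox2 6.22, beside a median of 6.89 for regions called lower and 3.6 for all promoter regions outside the segment. The counts describe the letters alone.

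The first question was at which regions E14 and the clones differed. A region was called where the E14 and clone means differed by more than 1 log2 unit with an adjusted p under 0.05 (limma, Benjamini-Hochberg over all 21970 regions). By this rule 761 regions were higher in E14, 3.46% of those tested, and 97 were lower, 0.442%. Outside the chromosome 14 segment 686 were higher and 97 lower. These counts rested on single libraries and on the variance model. With 1 library left out they ran from 65 (without E14 replicate 1) to 3456 (without clone 58) higher and from 45 (without clone 57) to 429 (without E14 replicate 2) lower, with 414 higher without E14 replicate 2 and 348 lower without clone 58, and without the trend and robust estimation 13 were higher and none lower, with 96 lower at an unadjusted p under 0.05 (limma). The 2 sets differed in form, which is given as a description since a region had to have E14 signal to be in the table. Outside the segment, regions higher in E14 were narrow and poor in CG, with a median width of 300 bp and an observed to expected CG ratio of 0.17, and 12.2% of them overlapped a region of the table made for the WT clones. Regions lower in E14 had a median width of 1350 bp and a ratio of 0.79, and 97.9% overlapped one. Of all 21970 regions 17124, or 77.9%, overlapped a clone region. In the other direction 14851 of the 31935 clone regions overlapped none of the E14 table and were not tested, so a site that is strong in the clones alone has no place in these counts.

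The reads behind the 2 sets differed as much. Outside the segment, regions called higher had medians of 10 and 19 reads in E14 and of 6 and 5 in clones 57 and 58. The background library of clone 57 had 0 reads in 35.3% of them, against 8.22% of all regions. Regions called lower had medians of 33 and 107 reads in E14 and of 351 and 118 in the clones. Counting error is therefore large at most regions called higher and modest at those called lower. Duplicates were kept, so reads are not independent molecules.

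Every call depended on the scaling. With cyclic loess normalisation, which removes the trend of the difference with the level, no region was called in either direction, while 109 were higher and 71 lower by more than 1 log2 unit at an unadjusted p under 0.05. With quantile normalisation, or with the values as deposited, none was called either. As deposited, the median difference over regions was -0.82. All 761 and all 97 regions kept the sign of their difference under loess and quantile normalisation. Loess values are given below for many, though not all, of the lists and named genes.

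Promoters and other regions had medians of opposite sign after centring. As deposited, where every difference is lower by the same amount, both medians were below 0. At the 12171 promoter regions outside the segment (within 1.5 kb of a RefSeq start site) the median level was 0.17 and 0.26 in E14 and 0.54 and 0.43 in clones 57 and 58, and the median difference was -0.26. At the 9391 other regions it was -0.30 and -0.32 in E14 and -1.07 and -0.69 in the clones, with a median difference of 0.55. In each class both E14 medians were nearer to 0 than both clone medians. Among promoter regions 45 were called higher and 89 lower, and among the others 641 and 8. Without clone 57 the 2 medians were -0.20 and 0.36, and after loess they were 0.01 and 0.03.

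**Figure D1:**
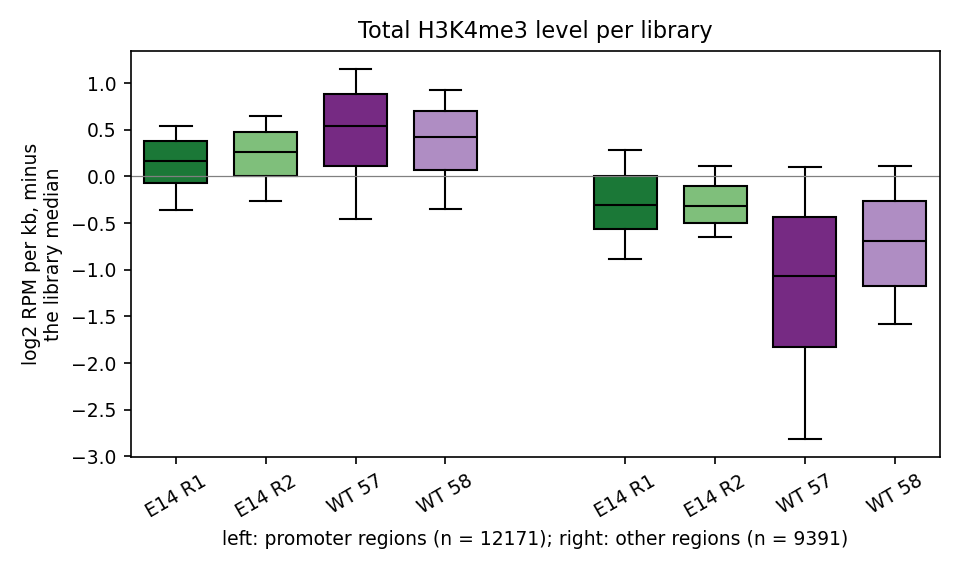
Centred total H3K4me3 level (log2 RPM per kb minus the library median) in each of the 4 libraries for promoter regions (left, n = 12171) and other regions (right, n = 9391) outside the chromosome 14 segment. Each box spans the quartiles with the median as a line, and medians run from 0.17 to 0.54 at promoters and from -0.30 to -1.07 elsewhere, with clone 57 the most extreme in both.

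The difference followed the level closely. Over 10 classes of equal size by mean level, its median ran from 1.62 in the lowest class, through 0.08 in the fifth, to -0.52 in the highest. It also followed base composition over 5 such classes, from 0.81 at the lowest CG ratio to -0.49 at the highest. After loess the lowest and highest classes by level had medians of 0.08 and 0.03, and those by CG ratio 0.06 and -0.13. Part of the relation with the level is built into a difference plotted against a mean that shares its values.

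**Figure D2:**
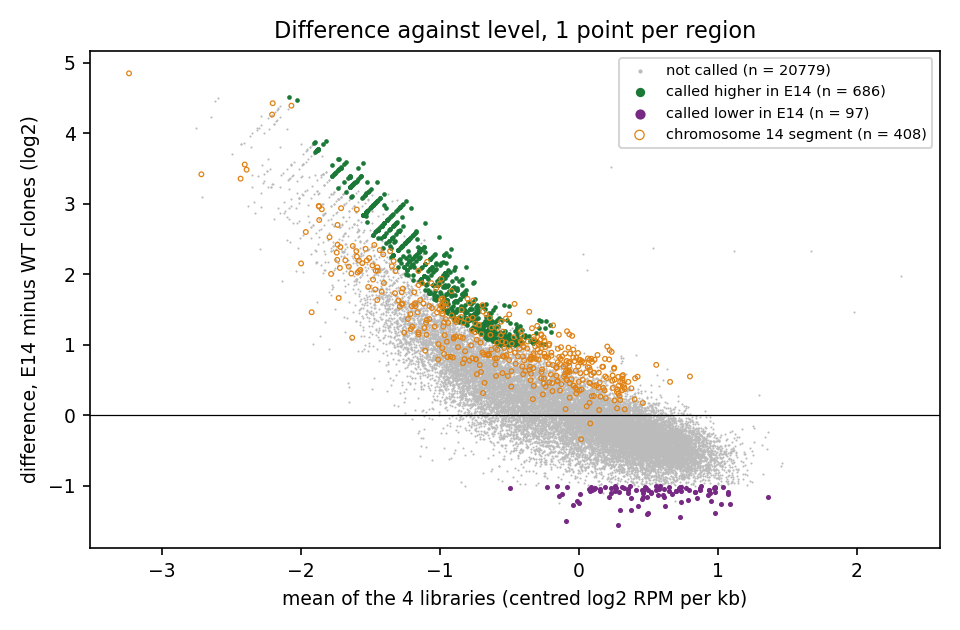
Difference between E14 and the WT clones (log2, vertical axis) against the mean of the 4 libraries (centred log2 RPM per kb, horizontal axis), with 1 point per region, regions called higher (686) and lower (97) outside the segment in colour and the 408 regions of the segment as open circles. The cloud falls from left to right, the higher calls sit at low levels and the lower calls below the cloud at high ones.

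Promoters marked by both H3K4me3 and H3K27me3 were set beside the rest. Outside the segment 1544 promoter regions overlapped an H3K27me3 region of E14 cells and had a median difference of -0.19. Of these 3 were called higher (0.194%) and 8 lower (0.518%). The 10627 without H3K27me3 had a median of -0.27, with 42 higher (0.395%) and 81 lower (0.762%). Over all promoter regions outside the segment the shares were 0.370% and 0.731%. After loess the medians were -0.02 and 0.02, so the order of the classes turned with the scaling. No test of this difference was made.

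Narrow regions carried most of the higher calls. Of 1054 regions of 300 bp outside the segment 468 were called higher and 2 lower, with a median difference of 1.95. Their E14 medians were 7 and 19 reads, and their medians in clones 57 and 58 were 5 and 5. When the 16477 regions above the 25th percentile of mean level were fitted alone, 140 were called higher and 97 lower. All 97 of the lower set were called again, and 137 of the higher set.

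Of the 13560 genes with a promoter region, 82 or 0.605% were called higher and 92 or 0.678% lower, and 36 of the higher ones lie outside the segment. Both E14 values lay above both clone values at 11.8% of the genes and below them at 55.0%, and these shares are the background for the lists below. They are not matched for level. Over regions outside the segment the share below ran from 0.0% in the lowest of the 10 classes by level to 87.4% in the highest. For the ribosomal protein genes, of which none was called, it was 71.4%. The median difference over all genes was -0.27, and 0.03 after loess.

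Mest had the most negative difference of all promoters. It encodes a protein of the alpha/beta hydrolase fold and is expressed from the paternal allele, with a promoter that is methylated on the maternal one. Its region, chr6:30736951-30739200, had levels of -0.75 and -0.25 in E14 replicates 1 and 2 and of 1.17 and 0.95 in clones 57 and 58, from 33, 129, 522 and 174 reads. The groups did not overlap, and E14 was 2.95-fold lower (log2 difference -1.56 ± 0.20 SE, adjusted p = 8.33e-05 by limma). The difference was -1.45 without clone 57 and -1.32 after loess. In the DKO clones 43 and 53, which are in neither group and entered only an alternative fit, the level was 1.01 and -0.08. Clones of E14 origin thus differed among themselves at this promoter.

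The other 9 promoters with the most negative differences were those of Cstf2, Bzw1, Fam241a, Igsf11, Nup93, Chn1, Vat1l, Smap1 and Zkscan8. At Bzw1, which encodes a regulator of translation initiation, the level was -0.21 and 0.21 in E14 and 1.59 and 1.31 in the clones, a difference of -1.45 ± 0.21 (adjusted p = 0.000213, limma). Vat1l stood at -0.45 and -0.30 in E14 and at 0.95 and 0.98 in the clones, and differed by -1.34 ± 0.19 with the same adjusted p. Both genes had E14 replicates close together and far from both clones. At Cstf2, a cleavage factor of mRNA 3′ end processing on the X chromosome, the E14 replicates were far apart, at -1.52 and -0.16 from 9 and 64 reads, with the clones at 0.79 and 0.54. Its difference of -1.50 ± 0.39 had an adjusted p = 0.0398 (limma). Nup93, a scaffold subunit of the nuclear pore, was similar, with -0.20 and 0.76 in E14 and 1.78 and 1.57 in the clones. Without E14 replicate 1 the calls at Cstf2 (-0.82), Nup93 (-0.91), Chn1 (-0.81) and Smap1 (-0.78) were lost. Fam241a, Igsf11, Chn1, Smap1 and Zkscan8 differed by -1.29 to -1.40, and after loess the 10 differences lay between -1.51 and -0.76. At Zkscan8 the difference turned to 0.42 after subtraction of the IgG–IgG value. No theme was tested among these genes, which were ordered by their difference alone.

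At the promoters higher in E14 outside the segment the signal was low. The 10 with the largest differences were those of Olfr1313, Olfr497, Tspan8, Tas2r118, Wdr49, Olfr619, Gm15614, Arl14, Sostdc1 and Abca15. The Olfr genes encode olfactory receptors and Tas2r118 a bitter taste receptor, and no theme was tested among the 10. Each of the 10 had between 7 and 15 reads in E14 replicate 1, and between 1 and 9 reads in clone 57. The region at Olfr1313, chr2:112072351-112072650, had 10 and 16 reads in E14 and 1 and 3 in the clones, which gave levels of 0.44, -0.35, -4.95 and -2.00. The difference of 3.52 ± 1.13 had an adjusted p = 0.0381 (limma), and fell to 1.27 after loess. None of the 10 regions overlapped a clone region. As entry to the table went with E14 signal, such a p-value is no independent test of higher signal in E14. At Olfr497 the reads were 8 and 17 in E14 and 3 and 1 in the clones, and at Tas2r118 they were 7, 18, 2 and 4. Groups did not overlap at any of the 10, but the levels rest on few reads in every library. All 10 lost the call without E14 replicate 1, when Olfr1313 differed by 3.12. E14 replicate 2 is the deepest library, and at each of the 10 its level was below that of replicate 1.

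Away from promoters, 4 of the largest higher calls were regions of 300 bp whose nearest start sites, 82.4 to 620 kb away, were those of Dsc3, Kcnv1, Csmd1 and 8430436N08Rik. The region near Kcnv1 had 10 and 20 reads in E14 and 1 read in each clone, and levels of 0.44, -0.03, -4.95 and -3.58. Its difference was 4.47 ± 1.45 with an adjusted p = 0.0394 (limma). This region too overlapped no clone region, so its p-value has the same limit. The region near Dsc3 had 12 and 16 reads in E14 and 1 and 0 in the clones. With 0 or 1 read in the clones, the size of these differences depends on the value entered for an empty region (0.9 reads) and on single reads.

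The 5 lowest regions away from promoters were wider, 600 to 1200 bp. Their nearest start sites were those of Slc44a3, Mkrn3, Huwe1, Lor and 4930467E23Rik. Near Mkrn3, an imprinted gene of the Prader-Willi region, the region at chr7:62406601-62407200 had levels of -1.08 and -0.35 in E14 and of 0.45 and 0.42 in the clones, a difference of -1.15 ± 0.25 (adjusted p = 0.00728, limma). It lost the call without E14 replicate 1 (-0.78) or clone 57 (-1.13), and turned to 1.49 when the IgG–IgG value of each group was subtracted, as the background there was -2.01 in E14 and 0.52 in clone 57. Near Slc44a3 the levels were -0.89 and -0.46 against 0.42 and 0.77, a difference that turned to 0.095 after the same subtraction. Levels near Huwe1, a ubiquitin ligase gene of the X chromosome, were -0.56 and -0.54 against 0.69 and 0.44. These 5 regions held 7 to 24 reads in E14 replicate 1 and 84 to 243 in clone 57.

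Imprinted genes had the largest share of members called lower among the lists. Imprinting restricts expression to the allele of 1 parent through DNA methylation of control regions, and H3K4me3 marks the unmethylated allele. Of 37 genes listed, 21 had a promoter region, in 20 regions since Peg3 and Usp29 share one. Of these 21, 4 were called lower and none higher, against 0.678% and 0.605% of all genes, and both E14 values lay below both clone values at 18 against 55.0% of all genes. The list's median difference was -0.63, -0.53 without clone 57 and -0.28 after loess, beside -0.27, -0.21 and 0.03 for all genes.

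The 4 genes called lower were Mest, Zdbf2, Kcnq1ot1 and Ndn, all of them expressed from the paternal allele. Zdbf2, a zinc finger gene, had levels of 0.02 and -0.20 in E14 and of 1.15 and 0.98 in the clones at chr1:63199651-63200850, a difference of -1.16 ± 0.19 (adjusted p = 0.00151, limma). Kcnq1ot1, the long non-coding RNA that silences its cluster in cis, had 0.37 and 0.38 against 1.54 and 1.22. Its difference of -1.003 ± 0.21 lay at the edge of the rule. Ndn, a MAGE family gene of the Prader-Willi region, had -0.13 and -0.14 against 1.01 and 0.72, a difference of -1.002 ± 0.19. After loess the 4 differences were -1.32 at Mest, -0.79 at Zdbf2, -0.42 at Kcnq1ot1 and -0.71 at Ndn. Without clone 57 the calls at Kcnq1ot1 (-0.85) and Ndn (-0.85) were lost and 2 of the 21 genes remained called, Mest and Zdbf2, which kept the call with any 1 library left out. Ndn also lost it without E14 replicate 2. Among the 4 the E14 replicates lay farthest apart at Mest, with a gap smaller than that to either clone.

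Other imprinted genes fell short of the rule. Magel2 and Mkrn3, neighbours of Ndn, had differences of -0.79 and -0.63, and Peg3 and Usp29 shared one of -0.83. Igf2r, which is expressed from the maternal allele, had -0.76. Cdkn1c, Grb10 and Slc38a4 were the 3 genes at which the groups overlapped, with differences of -0.09, -0.29 and 0.08. The DKO clones also differed from each other at several of these genes, at 1.33 and 0.23 for Snrpn, 1.31 and 0.28 for Peg3 and 0.66 and -0.82 for Meg3, while clones 57 and 58 lay farthest apart at Kcnq1ot1. Whether the alleles differ was not tested, as the values do not separate them.

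**Figure D3:**
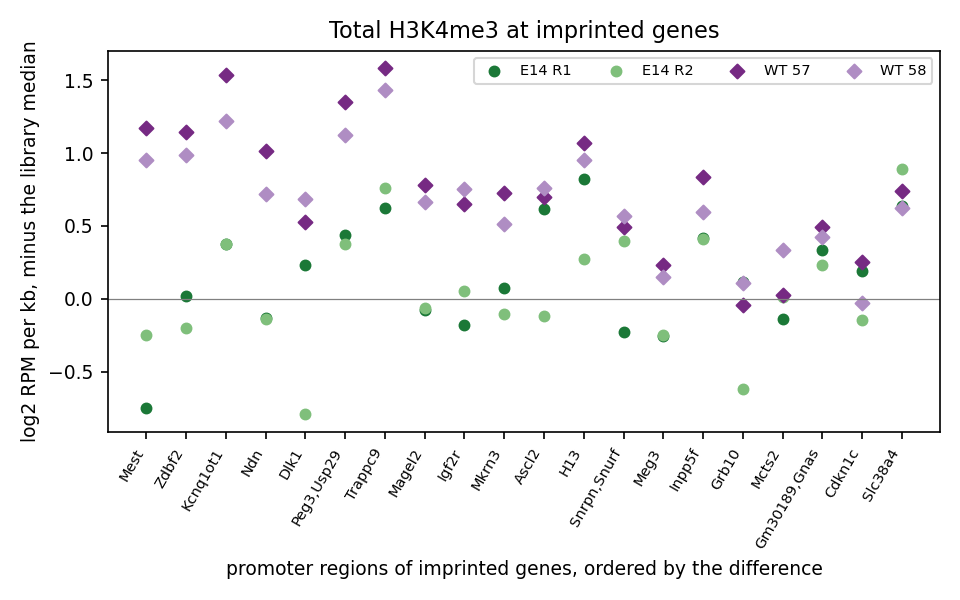
Centred total H3K4me3 level (log2 RPM per kb minus the library median) at the 20 promoter regions of imprinted genes, ordered by the difference, with the E14 replicates as circles and WT clones 57 and 58 as diamonds. Both E14 values lie below both clone values at all genes but Cdkn1c, Grb10 and Slc38a4, with the widest gap at Mest.

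Among the pluripotency factors Sox2 was called and the other 22 were not. Sox2, a partner of OCT4 at ESC enhancers, had levels of 0.28 and 0.58 in E14 and of 1.65 and 1.40 in the clones at chr3:34648051-34652100, from 121, 413, 1302 and 427 reads. E14 was 2.13-fold lower (difference -1.09 ± 0.21, adjusted p = 0.00364, limma), and -0.46 after loess. The call was lost without E14 replicate 1 (-0.94) or clone 57 (-0.97). Pou5f1, which encodes OCT4, had 0.48 and 0.63 against 1.26 and 1.12, a difference of -0.63 that did not reach 1 log2 unit, and of -0.05 after loess. At Klf4 the difference was -0.38 and at Esrrb -0.07, and both turned sign after loess, to 0.12 and 0.04. Both E14 values lay above both clone values at Nanog, Prdm14 and Dppa5a, by 0.17, 0.28 and 0.51, and below them at 12 of the 23, or near the share over all genes. The list's median was -0.37, and 0.04 after loess.

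Genes of formative and primed pluripotency had no called member. Of 15 listed, 11 had a region, and both E14 values were below both clone values at 10, against 55.0% of all genes. The list's median was -0.59, and -0.20 after loess. Pou3f1, a POU factor of the formative state, stood at -0.06 and -0.05 in E14 and at 1.01 and 0.77 in the clones. Its difference of -0.95 ± 0.19 (adjusted p = 0.0039, limma) missed the limit of 1 log2 unit, and was -0.63 after loess. The de novo DNA methyltransferase genes Dnmt3a and Dnmt3b differed by -0.82 and -0.57. Otx2 was the exception, higher in E14 by 0.94, but it lies in the chromosome 14 segment. Immediate early genes and FGF-ERK targets were alike, with 14 of 16 below in E14, none called, differences from -0.68 at Spred1 to -0.05 at Fosb, and a median of -0.54 that was -0.10 after loess.

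Hox genes had no called member. Of 39 listed, 16 had a promoter region, and all 16 regions overlapped H3K27me3. Both E14 values lay above both clone values at 10, against 11.8% of all genes, and below them at 4, against 55.0%. Their median levels were 0.07 and -0.21 in E14 and -0.87 and -0.47 in clones 57 and 58, so clone 57 was the lowest. Hoxb13 stood at 0.21 and -0.01 in E14 and at -0.97 and -0.66 in the clones, a difference of 0.91 ± 0.29 that did not reach the limit. Hoxa2 and Hoxb6 had larger differences of 1.28 and 1.31, whose adjusted p of 0.076 and 0.194 (limma) missed the threshold. The list's median of 0.53 was 0.36 without clone 57 and 0.11 after loess.

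The remaining lists gave few or no calls. Of 12 extraembryonic endoderm genes with a region, Gata4 was called higher, a zinc finger factor of primitive endoderm that lies in the chromosome 14 segment. It stood at 0.29 and -0.20 in E14 and at -1.54 and -1.23 in the clones, a difference of 1.43 ± 0.38 (adjusted p = 0.0168, limma). It was 0.88 after loess, lost the call without E14 replicate 1 (1.19), and turned to -1.22 when the IgG–IgG value was subtracted, as the background was 0.60 in E14 and -2.16 in clone 57. None of the 9 trophoblast, 4 mesoderm, 9 neuroectoderm or 7 fibroblast genes with a region was called, and their list medians were 0.12, -0.03, -0.16 and 0.01. Nor was any of 11 housekeeping genes, 15 p53 and stress genes, 11 hypoxia targets, 77 ribosomal protein genes or 18 clustered protocadherins, with medians of -0.29, -0.21, 0.12, -0.31 and 0.06. Among the hypoxia targets both E14 values lay above both clone values at 4 of 11, or 36.4% against 11.8% of all genes. This share was not particular to them, with 33.3% for the trophoblast and extraembryonic endoderm genes and 27.8% for the clustered protocadherins. The 4 hypoxia targets, named here after their values were seen, were Egln3, Bnip3, Slc2a1 and Pfkfb3. Their differences were 0.62, 0.67, 0.65 and 0.24, and 0.83, 0.71, 0.51 and 0.55 after loess. At the other end of the list Ldha had -0.41, P4ha1 -0.19 and Egln1 -0.10, of which the last 2 turned to 0.20 and 0.16 after loess. Germline and 2-cell stage genes had regions for 5 of 24 and 3 of 17, none of them called.

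Of 339 numbered Zfp genes 4 were called lower, or 1.18% against 0.678% of all genes, and none higher against 0.605%. A count this near the background is no result about the family. These were Zfp959, Zfp978, Zfp777 and Zfp711. At Zfp959 the level was -1.04 and -0.21 in E14 and 0.90 and 0.34 in the clones, a difference of -1.25 ± 0.26 (adjusted p = 0.00742, limma). At Zfp978 it was 0.66 and 0.90 against 2.04 and 1.84, which is high in all 4 libraries, with a difference of -1.16 that was -0.33 after loess. Zinc finger genes of this type have near copies in the genome, so reads may be shared or lost among them. None of the 4 calls held with each library left out in turn: without E14 replicate 1 the differences at Zfp959 and Zfp777 were -0.83 and -0.83 and that at Zfp978, -1.04, was not called, and without clone 57 that at Zfp711 was -0.77. The list's median was -0.25.

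Genes at which the study placed qPCR primers were measured as well. Of 15 genes listed from these primers, which are not all of them, 12 had a promoter region and none was called. Gapdh, a control locus, had levels of 0.55 and 0.61 in E14 and of 0.97 and 0.76 in the clones, a difference of -0.29 ± 0.20 that turned to 0.21 after loess. Pou4f1, a neural POU factor, stood at -0.41 and -0.22 against 0.68 and 0.44, a difference of -0.87 ± 0.21 (adjusted p = 0.00951, limma). Dlx3, a homeobox gene, differed the other way, with 0.50 and 0.18 against -0.46 and -0.16 and a difference of 0.65 ± 0.22. Tlx1, Sox6 and Dppa2 differed by 0.04, 0.08 and 0.00. At Dppa2 the levels were -0.62 and -0.25 in E14 and -0.50 and -0.38 in the clones, so the groups overlapped at this gene, for which both groups are WT.

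The 3 strongest promoters outside the segment were not called. Psmd11, a proteasome subunit gene, stood at 1.02 and 1.23 in E14 and at 1.92 and 1.67 in the clones. At the promoter shared by 5830448L01Rik and Wapl the levels were 1.13 and 1.07 against 2.02 and 1.60. Nol11, a factor of ribosome biogenesis, had 1.24 and 1.25 against 1.63 and 1.33. Their differences were -0.67, -0.72 and -0.23, and 0.21, 0.16 and 0.60 after loess, so the sign at these 3 promoters depended on the scaling.

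Chromosome 14 from 40 to 90 Mb differed as a block. The median level of its 408 regions was -0.01 and 0.03 in E14 and -0.90 and -0.90 in clones 57 and 58, while that of regions elsewhere is 0 by the centring. E14 minus clones, the segment stood 0.91 log2 units above the rest, a ratio of 1.88, and this held between 0.91 and 0.95 with any 1 library left out. The size depended on the scaling, since after loess the segment's median difference was 0.54 against 0.02 elsewhere. The exact two-sided permutation p was 0.333, again the smallest possible. Both E14 values lay above both clone values at 384 regions or 94.1%, against 33.7% of all regions, and at 2 regions the difference was below 0. The DKO clones stood at -0.85 and -0.89.

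The same step was found in every other ChIP measured over these regions. Total H3K27me3 gave 0.97 and the IgG–IgG background, with 1 library per group, 0.83. The reChIPs gave 0.94 (K4-K27) and 0.95 (K27-K4). The step was thus of similar size in libraries that did not select H3K4me3. In windows of 1 Mb the proximal edge lay among few regions, with medians of 1.80 over 2 regions at 35 to 36 Mb, 0.61 over 3 at 36 to 37 Mb, -0.29 over 3 at 37 to 38 Mb, -0.94 in 1 at 39 to 40 Mb and 1.64 over 4 at 40 to 41 Mb. At the other end regions are as few: 1 at 91 to 92 Mb had 3.15, with clone 57 at -5.53 and differences of 0.07 in H3K27me3 and -2.04 in IgG–IgG, and 1 at 93 to 94 Mb had -0.24. Far outside the segment, at 109 to 110 Mb, a single region had 2.81, so windows of 1 region do not place the edge.

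**Figure D4:**
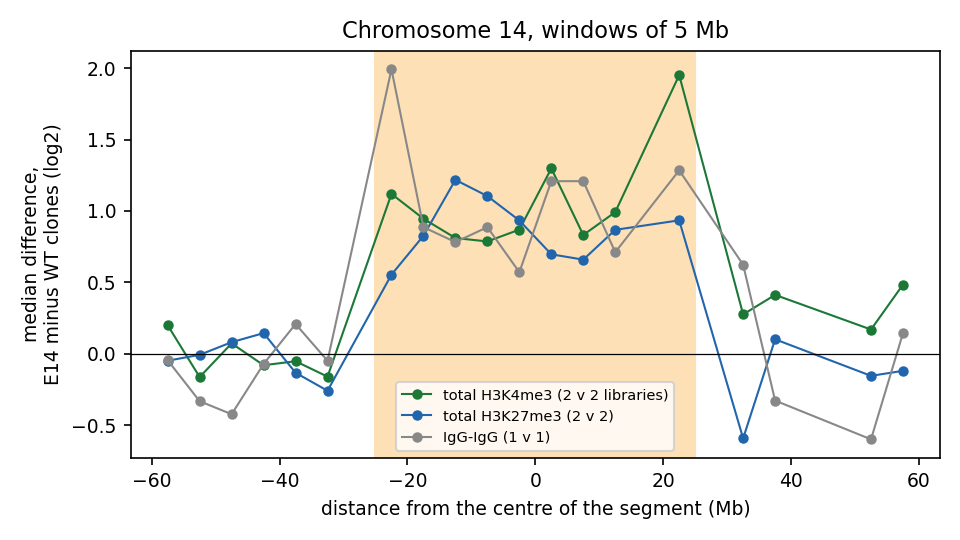
Median difference between E14 and the WT clones (log2) in windows of 5 Mb along chromosome 14, against the distance from the centre of the segment, for total H3K4me3, total H3K27me3 (2 against 2 libraries each) and IgG–IgG (1 against 1). Windows with under 10 regions are left out and the segment is shaded, and all 3 series lie between 0.55 and 1.99 inside it and between -0.60 and 0.62 outside.

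Of the 408 regions 75, or 18.4%, were called higher against 3.46% of all regions, and none lower. Of 262 genes with a promoter there 46 were called higher, against 0.605% of all genes. The 75 called regions had median levels of -1.40 and -1.21 in clones 57 and 58, below the -0.90 of all regions of the segment. The 5 strongest promoters of the segment were those of Esco2, a cohesin acetyltransferase, of the pair Psme2 and Rnf31, of the pair Socs4 and Wdhd1, of Itm2b and of Polr3d, a subunit of RNA polymerase III, and none was called. Esco2 stood at 1.05 and 1.10 in E14 and at 0.67 and 0.38 in the clones, a difference of 0.55 ± 0.20. Socs4 differed by 0.72 and Itm2b by 0.17. After loess these became 1.09, 1.12 and 0.53. Promoters of the segment had a median difference of 0.75 against -0.26 for promoters elsewhere, and other regions 1.52 against 0.55. After loess these were 0.62 against 0.01 and 0.34 against 0.03. For genes of the segment, among them Gata4 and Otx2, more DNA copies and more H3K4me3 per copy cannot be told apart.

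Chromosome 11 stood above the other autosomes, by less than the segment. To take out the difference between promoters and other regions, the promoter median of each chromosome was set against that of all promoters outside the segment. It was 0.22 log2 units above for the 970 promoter regions of chromosome 11, a ratio of 1.16, and lay between 0.20 and 0.24 in all 4 pairs of an E14 library with a clone. The shift was 0.23 in total H3K27me3, 0.21 in K27-K4, 0.10 in K4-K27 and 0.18 in IgG–IgG, and 0.24 after loess. In windows of 5 Mb with at least 15 promoters it ranged from -0.01 to 0.52, the highest at 110 to 115 Mb. Chromosome 8 stood 0.12 below over 637 promoter regions, between -0.08 and -0.13 in the 4 pairs, with -0.07 in H3K27me3, -0.07 in K27-K4, -0.04 in K4-K27 and -0.10 in IgG–IgG. After loess it was -0.07, near the -0.06 of chromosome 1. Of the 17 other autosomes the medians lay between -0.08 and 0.05. No test of whole chromosomes was made.

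**Figure D5:**
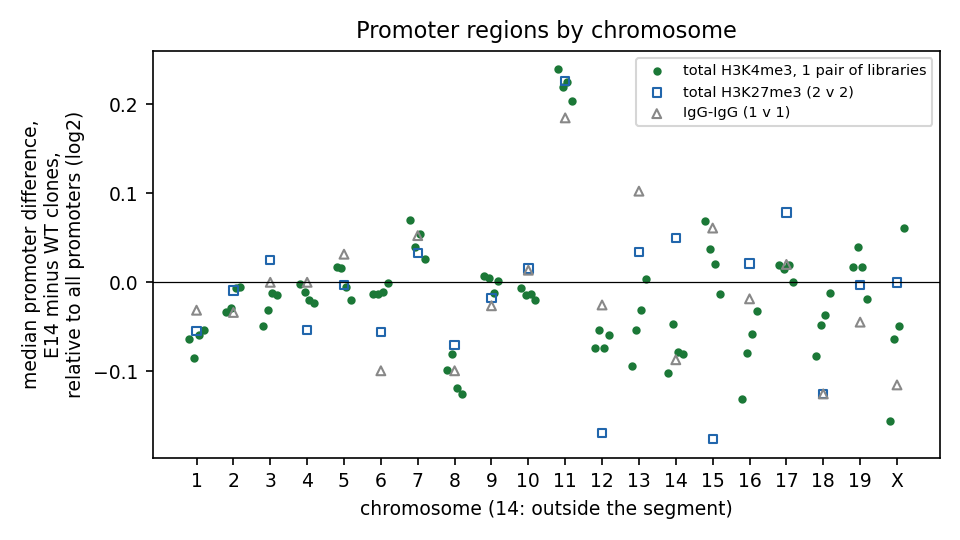
Median promoter difference between E14 and the WT clones (log2) by chromosome, relative to all promoters outside the segment, with small points for the 4 pairs of an E14 library and a clone, squares for total H3K27me3 and triangles for IgG–IgG. Chromosome 11 lies near 0.2 in every series and chromosome 8 near -0.1, while Y, with 3 regions, is not drawn.

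The sex chromosomes gave a different picture. X held 14 of the 97 regions called lower, 2.16% of its 649 regions against 0.442% of all, among them Cstf2, Zfp711 and the region near Huwe1. Its promoter median was -0.07 relative to all promoters, and between -0.16 and 0.06 in the 4 pairs. After loess it was -0.43, so the size of the X difference depended strongly on the scaling. On Y the table has 3 regions, at Uty, Ddx3y and Eif2s3y, and none was called. Their median relative to all promoters was 1.03, with 1.69 in H3K27me3 and 1.22 in IgG–IgG, but -0.53 after loess, so its direction depended on the scaling. At Ddx3y, a helicase gene, the levels were -1.47 and -0.08 in E14 and -0.92 and -2.17 in the clones, from 8, 58, 49 and 8 reads. Replicates of each group thus differed more than the groups did, and in the DKO clones the level was -0.13 and -4.15.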

How the data were processed

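Total H3K4me3 was measured in E14 replicates 1 and 2 and in WT clones 57 and 58, and groups were taken from the labels. The authors trimmed reads with Trim Galore 0.6.6, aligned them to mm10 (GRCm38.p6) with BWA 0.7.13, used SAMtools 1.9 and Picard 2.6.0, and quantified regions in SeqMonk from alignments of high mapping quality with duplicates kept. The deposited values are log2 RPM per kb, with no IgG–IgG subtraction. The tables also hold 32 columns of no sample of this series, which were not used. All values were whole reads within 0.1 read, so the reads behind each could be recovered, and an empty region had been entered as 0.9 reads.

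Each library was centred on its median over regions outside chromosome 14 from 40 to 90 Mb. Groups were compared with limma 3.58.1 in R 4.3.3 (eBayes with trend and robust estimation) over all 21970 regions and 4 libraries, with Benjamini-Hochberg adjustment, and a call needed an adjusted p under 0.05 and a log2 difference above 1. The design had set a count test for the case of deposited counts, but as these values are on a log2 scale the test was limma. The fit was tested on simulated data. Promoters reached 1.5 kb either side of curated RefSeq starts, overlap meant 1 bp, and Python 3.11.15 with numpy 2.4.6, pandas 2.3.3, pysam 0.24.0 and matplotlib 3.10.9 was used.

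A gene with several promoter regions took the one with the highest mean. The text names the 10 promoters with the largest difference in each direction, the 5 most extreme regions away from promoters, up to 4 called members of each list or otherwise the 2 strongest, the qPCR loci, the 5 strongest promoters of the segment and the 3 strongest elsewhere. Of the regions this rule takes, 1 is not reported here. Other list members were named after their values were seen. The members and lists were chosen with earlier results of these data known. Alternatives covered scaling, IgG–IgG subtraction, the regions tested, the variance model, the libraries in the fit, thresholds, and promoter and segment limits.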

Additional observations from a re-analysis of the deposited data

How the results depend on the processing

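The main counts were 761 regions higher and 97 lower. Both became 0 with quantile normalisation, with cyclic loess and with values as deposited; at an unadjusted p under 0.05 and the same fold, limma then gave 546 and 145, 109 and 71, and 699 and 266. Without the trend and robust estimation there were 13 and 0 (96 lower at an unadjusted p under 0.05). Subtraction of the IgG–IgG value gave 3782 and 3570, where 1 background library serves both libraries of a group; the cause was not tested. The higher count was 203 in regions that overlap a clone region, 140 in the 16477 regions above the 25th percentile of level, 1570 at an adjusted p under 0.1, and, in an alternative added after seeing the data, 201 over promoter regions centred on their own median, where the lower count was 10. With no limit on the difference 1929 regions were lower. Leaving out 1 library moved the higher count between 65 (without E14 replicate 1) and 3456 (without clone 58), with 414 without E14 replicate 2, and the lower count between 45 (without clone 57) and 429 (without E14 replicate 2), with 348 without clone 58. Centring by chromosome, also added later, gave 696 and 105. In these fits the library alone in its group was assumed to vary like the other group.

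The segment difference of 0.91 was 0.83 with limits of 30 and 100 Mb, 1.01 over promoters and 0.91 to 0.95 with 1 library left out. The difference in the share of reads ran from -22.9 to -2.90 points with 1 library left out. Over the gene lists 10 of 615 genes were called, and 0 under the 3 scalings above and without the trend, 131 after IgG–IgG subtraction, and 5 (without clone 57) to 32 (without clone 58) with 1 library left out, with 26 without E14 replicate 2. Of 39 named regions that were called, all 39 lost the call under the 3 scalings, and 4 turned direction after IgG–IgG subtraction, Zkscan8 to 0.42, the region near Slc44a3 to 0.095, that near Mkrn3 to 1.49 and Gata4 to -1.22. No paired analysis was possible because the E14 replicates 1 and 2 and clones 57 and 58 share no number. The cause of these changes was not tested where none is given. After loess the median difference of the chromosome 14 segment was 0.54 against 0.02 elsewhere, beside a main step of 0.91.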
